A study of Mus musculus with 2 samples.

Results

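CD40 and other members of the tumour necrosis factor (TNF) receptor superfamily were examined in migratory dendritic cells (DCs) of skin-draining lymph nodes, together with adaptors of the TRAF family. The 10 genes were chosen by name, as 7 receptors (*Cd40*, *Tnfrsf1a*, *Tnfrsf1b*, *Tnfrsf4*, *Tnfrsf9*, *Tnfrsf11a* and *Ltbr*) and 3 adaptors (*Traf1*, *Traf3* and *Traf6*), and all 10 were among the 18049 genes listed in the expression data. The question was whether the rise of *Cd40* with the surface lectin CD301b is shared by the other receptors and by their adaptors.

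Receptors of this family sit at the cell surface and are engaged by trimeric ligands of the TNF family. Most of them, CD40 included, lack a death domain and pass the signal on through TRAF proteins to NF-κB and MAP kinases. CD40 binds the CD40 ligand of activated T cells, and its ligation on DCs, often called licensing, raises costimulation and cytokine production.

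The cells came from wild-type C57BL/6 mice and were sorted as live MHCIIhi CD11c+ B220- cells. CITEseq, which counts transcripts and DNA-barcoded antibodies in the same cell, was done on 1 library of naive, unimmunized mice and 1 library of mice immunized with ovalbumin (OVA) plus papain, a protease that provokes type 2 immunity, in the rear footpads 1 day earlier. The methods place the papain library in the popliteal nodes and the naive library in pooled skin-draining nodes, so immunization, node site and library cannot be told apart. With 1 library per condition nothing was tested, and every 95% interval below covers counting error only, not the variation between mice or libraries. The intervals of levels and ratios also leave out the spread between single cells.

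The naive library held 3471 cells with 3637 to 57378 transcripts (unique molecular identifiers, UMIs) per cell, and the papain library 7596 cells with 2682 to 57150. The classes were the authors' own, from the antibody data. In the naive library 658 cells were CD301blo, 659 CD301bint and 707 CD301bhi cDC2s (the conventional DCs that bear CD172a), 578 were cDC1s (which bear XCR1) and 440 were Langerhans cells (LCs, which bear CD326). In the papain library the numbers were 1470, 1827, 2893, 235 and 881. The remaining 429 naive and 290 papain cells had no antibody data and entered no class. The libraries shared 2 cell barcodes.

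The class names were checked against marker transcripts. *Cd207*, the gene of langerin, stood at 45.7 counts per 1000000 UMIs (CPM) in naive and 58.9 CPM in papain LCs and at no more than 9.2 CPM in any other class. *Xcr1* was highest in cDC1s in both libraries (16.9 and 9.4 CPM), whereas *Tlr3* had 0 UMIs in papain cDC1s, which allows up to 0.976 CPM (3 counts). *Mgl2*, the gene of CD301b, was at 15.2, 59.1 and 56.1 CPM in naive CD301blo, CD301bint and CD301bhi cDC2s. It thus set the CD301blo class apart but did not separate CD301bint from CD301bhi. In the papain library *Mgl2* was at or below 1.2 CPM in every class, so that there the CD301b classes rest on the surface protein alone.

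Promoter sequence is shown for a receptor that rose with CD301b in both libraries (*Tnfrsf1b*) and for the receptors that fell with it in the papain library (*Tnfrsf4* and *Tnfrsf9*). Each sequence is the 250 bases before a transcription start (for *Tnfrsf4* the 150 of them before the gene's outermost start), read 5′ to 3′ on the gene's own strand, from RefSeq on GRCm38.p6. The *Tnfrsf9* window precedes a start inside the gene. Capitals mark matches to GGGNNNNNCC, a loose form of the NF-κB site, on either strand, and overlapping matches run together.
Tnfrsf1b, chr4:145246871-145247120, minus strand: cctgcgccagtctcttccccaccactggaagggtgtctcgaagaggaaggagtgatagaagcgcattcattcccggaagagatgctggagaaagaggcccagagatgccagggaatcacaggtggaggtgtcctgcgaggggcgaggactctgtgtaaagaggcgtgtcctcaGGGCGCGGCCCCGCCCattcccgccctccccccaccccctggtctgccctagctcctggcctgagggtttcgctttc
Tnfrsf9, chr4:150927749-150927998, plus strand: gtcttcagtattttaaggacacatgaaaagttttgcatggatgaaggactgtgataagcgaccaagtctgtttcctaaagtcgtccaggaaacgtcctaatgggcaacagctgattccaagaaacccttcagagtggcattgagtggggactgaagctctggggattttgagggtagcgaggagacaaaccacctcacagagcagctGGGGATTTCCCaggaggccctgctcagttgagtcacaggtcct
Tnfrsf4, chr4:156013445-156013594, plus strand: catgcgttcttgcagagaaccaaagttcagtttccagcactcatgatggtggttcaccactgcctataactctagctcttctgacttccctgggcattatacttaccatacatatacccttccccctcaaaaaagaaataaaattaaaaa
The *Tnfrsf1b* window held 3 matches, 71 to 77 bases before the start, and this *Tnfrsf9* window held 3, at 42 and 43 bases. *Tnfrsf4* had none of these letters, nor had the other *Tnfrsf9* start of the table. Of the 10 windows of the 9 members found in the RefSeq table, 7 had a match, and 45.8% of all 32851 windows of 250 bases had one. The member without a window was *Cd40*, so its promoter was not examined. A match of these letters is a description of the sequence and not a binding site.

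*Cd40* (chr2:165055614-165071654, GRCm38.p6) rose stepwise with CD301b. In naive mice its level was 206 CPM in CD301blo, 361 CPM in CD301bint and 529 CPM in CD301bhi cDC2s. In papain-immunized mice the levels were 430, 702 and 844 CPM in the same order. The counting intervals of the 3 classes did not overlap in either library. CD301bhi cDC2s thus carried 2.57 times the *Cd40* level of CD301blo cDC2s in the naive library (log2 ratio 1.36, 95% interval 1.29 to 1.44) and 1.96 times in the papain library (log2 ratio 0.97, 95% interval 0.94 to 1.01).

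The other DC subsets fell inside the range of the cDC2 classes or just below it. In naive mice *Cd40* was at 297 CPM in cDC1s and 299 CPM in LCs, which did not differ beyond counting error, and both lay between CD301blo and CD301bint cDC2s. In papain-immunized mice cDC1s, at 410 CPM, overlapped CD301blo cDC2s in their intervals, and LCs, at 693 CPM, overlapped CD301bint cDC2s. CD301bhi cDC2s had the highest level of the 5 classes in both libraries.

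Single cells of a class spread widely around these levels. In naive CD301blo cDC2s the median cell had 81.0 CPM of *Cd40* and the 90th percentile was at 576 CPM. In naive CD301bhi cDC2s the median was 346 CPM and the 90th percentile 1225 CPM. In papain-immunized mice the median rose from 239 CPM in CD301blo to 638 CPM in CD301bhi cDC2s. The 90th percentile of CD301blo cells (1108 CPM in the papain library) lay above the median of CD301bhi cells in both libraries.

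**Figure D1:**
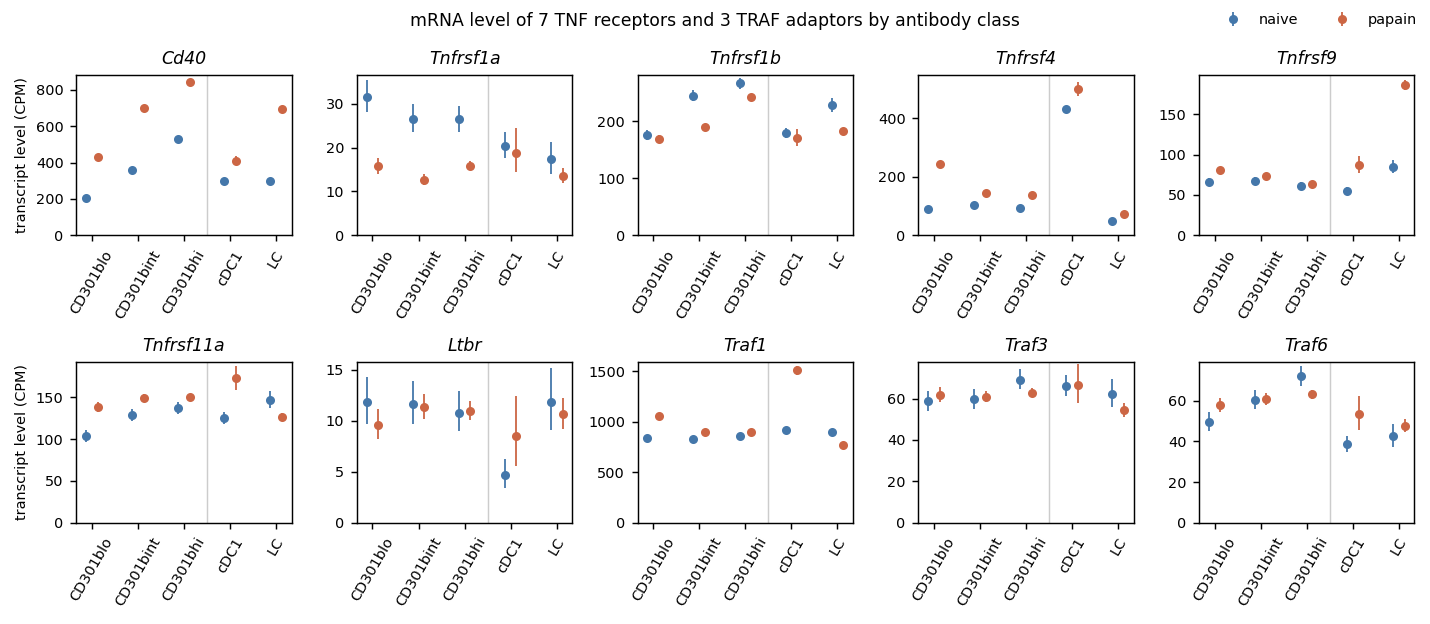
Level of each member in CPM (linear axis from 0) in the 3 CD301b classes of cDC2s, in cDC1s and in LCs, for the naive (blue) and papain (orange) library. Points are sums over all cells of a class with 95% counting intervals, and there is 1 library per condition. *Cd40* climbs from 206 to 529 CPM and from 430 to 844 CPM across the cDC2 classes, whereas *Tnfrsf4* is highest in cDC1s.

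Among the other receptors, *Tnfrsf1b* (chr4:145212368-145246870), which encodes TNFR2, the TNF receptor without a death domain, had the same order of classes as *Cd40*. Its level was 176, 245 and 267 CPM in naive CD301blo, CD301bint and CD301bhi cDC2s, and 170, 190 and 243 CPM in the papain library. The log2 ratio of CD301bhi over CD301blo was 0.60 (95% interval 0.52 to 0.69) and 0.51 (95% interval 0.46 to 0.57), smaller than that of *Cd40* in both libraries with intervals that did not overlap. The naive CD301bint and CD301bhi classes lay close together, and in papain-immunized mice cDC1s were at 171 CPM, level with CD301blo cDC2s.

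*Tnfrsf11a* (chr1:105780673-105849444), the gene of RANK, through which the cytokine RANKL sustains DC survival, rose with CD301b in naive mice, from 104 over 129 to 137 CPM (log2 ratio 0.41, 95% interval 0.29 to 0.52). In papain-immunized mice the classes were closer, at 138, 150 and 151 CPM (log2 ratio 0.12, 95% interval 0.06 to 0.19). The counting intervals of the 2 log2 ratios did not overlap, but a difference between the libraries was not tested. The highest *Tnfrsf11a* levels were outside the cDC2s in both libraries, in naive LCs (147 CPM) and papain cDC1s (173 CPM).

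*Tnfrsf4* (chr4:156013595-156016613), the gene of the costimulatory receptor OX40, went another way. Its naive level was 88.5, 102 and 93.8 CPM from CD301blo to CD301bhi, with no order by class, and its papain level was 243, 143 and 137 CPM. CD301blo cDC2s of papain-immunized mice had 1.77 times the *Tnfrsf4* of CD301bhi cDC2s (log2 ratio of CD301bhi over CD301blo -0.83, 95% interval -0.88 to -0.77). The receptor was highest in cDC1s in both libraries, at 429 CPM in naive and 499 CPM in papain cells, and lowest in LCs, at 50.04 and 73.2 CPM. *Tnfrsf4* is also a gene of activated and regulatory T cells. In cDC1s without a *Cd3e* or *Trac* UMI it was at 460 CPM in naive and 497 CPM in papain cells, so the level was as high without the cells that carried T cell transcripts.

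*Tnfrsf9* (chr4:150920155-150946104), the gene of the costimulatory receptor CD137, lay at 65.8, 67.1 and 61.5 CPM in the naive classes and at 80.5, 74.1 and 63.0 CPM in the papain classes. The naive log2 ratio was -0.10 (95% interval -0.26 to 0.06) and the papain one -0.35 (95% interval -0.44 to -0.26). LCs had the highest level in both libraries, at 85.2 and 186 CPM.

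*Tnfrsf1a* (chr6:125349723-125362483), the gene of the death domain receptor TNFR1, and *Ltbr* (chr6:125306571-125313885), the gene of the lymphotoxin β receptor, were low and met neither the rising nor the falling rule given below. *Tnfrsf1a* was at 31.6, 26.6 and 26.4 CPM in naive cDC2s, highest in the CD301blo class (log2 ratio -0.26, 95% interval -0.50 to -0.02), and at 15.8, 12.7 and 15.9 CPM in papain cDC2s (log2 ratio 0.01, 95% interval -0.19 to 0.21). *Ltbr* was at 11.8, 11.6 and 10.8 CPM in naive and at 9.6, 11.3 and 10.95 CPM in papain cDC2s. The interval of the *Ltbr* log2 ratio ran from -0.52 to 0.25 in naive and from -0.06 to 0.45 in papain cells, so a shift of *Ltbr* of the size seen for *Tnfrsf11a* was not detectable at this depth in the papain library.

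The adaptors were more even across the classes than *Cd40*. *Traf6* (chr2:101678420-101701668), the adaptor that CD40 and RANK bind directly and that activates TAK1, was at 49.6, 60.5 and 72.1 CPM in naive cDC2s (log2 ratio 0.54, 95% interval 0.37 to 0.71) and at 57.8, 60.9 and 63.3 CPM in papain cDC2s (log2 ratio 0.13, 95% interval 0.03 to 0.23). *Traf3* (chr12:111166321-111267155), which restrains the noncanonical NF-κB pathway until CD40 is ligated, was at 58.7, 59.8 and 69.2 CPM in naive and at 61.8, 61.0 and 62.7 CPM in papain cDC2s. *Traf1* (chr2:34941750-34961812), an adaptor that is itself an NF-κB target, was at 840, 828 and 855 CPM in naive and at 1057, 898 and 901 CPM in papain cDC2s. The papain log2 ratio of *Traf1* was -0.23 (95% interval -0.25 to -0.20), with CD301blo cDC2s the highest of the 3 classes. Papain cDC1s had the highest *Traf1* level of the 10 groups, at 1512 CPM.

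A gene was counted as rising with CD301b when its level increased from CD301blo over CD301bint to CD301bhi by at least 25% in all, with at least 10 CPM in the higher class, and as falling in the reverse case. All 10 members reached the minimum level in both libraries. The rise of *Cd40* was the starting point of the question, so its own call adds nothing to the counts below. In naive mice 4 of the 10 members rose (*Cd40*, *Tnfrsf1b*, *Tnfrsf11a* and *Traf6*) where 12.9% of all 7475 genes did, and 0 fell where 19.5% of all genes did. In papain-immunized mice 2 members rose (*Cd40* and *Tnfrsf1b*) where 12.1% of all 7171 genes did, and 2 fell (*Tnfrsf4* and *Tnfrsf9*) where 8.97% did. *Cd40* and *Tnfrsf1b* rose in both libraries, a pattern shared by 6.42% of the 6884 genes measured in both. The rise was therefore shared by 1 of the 6 other receptors, and by 0 of the 3 adaptors, in both libraries.

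By size, the *Cd40* ratio ranked 21st of 7475 genes in naive and 76th of 7171 in papain cells. The rise of *Cd40* was known before it was ranked, so the rank is a description and no support for it. The median log2 ratio of the 10 members was 0.16 in naive and 0.07 in papain cells, against -0.06 and 0.01 over all genes. That median includes *Cd40* itself. At a rise of at least 1.5-fold the members that rose were *Cd40* and *Tnfrsf1b* in naive and *Cd40* alone in papain-immunized mice. The share of all genes at that fold was not counted.

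**Figure D2:**
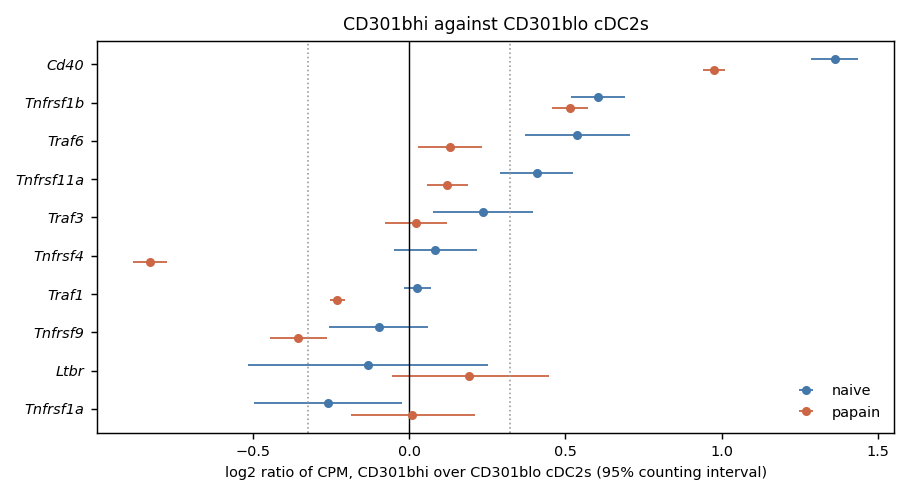
Log2 ratio of CPM in CD301bhi over CD301blo cDC2s for each member (naive blue, papain orange), with exact 95% counting intervals. Dotted lines mark a difference of 25%. *Cd40* stands farthest to the right in both libraries (1.36 and 0.97), and *Tnfrsf4* lies at 0.08 in the naive and at -0.83 in the papain library.

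The same order appeared when the class borders were set aside and the cDC2s of each library were cut into 5 equal bins of the CD301b antibody value. *Cd40* went up at every step, from 172 over 310, 348 and 457 to 564 CPM in naive mice and from 401 over 634, 777 and 826 to 874 CPM in papain-immunized mice. *Tnfrsf1b* also went up at every step, from 159 to 267 CPM and from 172 to 263 CPM. In naive mice the increase of *Tnfrsf1b* was largely over by the middle bin (246 CPM), whereas in papain-immunized mice it began there (206 CPM). *Tnfrsf4* in the papain library dropped from 257 to 159 CPM between the lowest and the next bin and was between 130 and 147 CPM beyond. *Traf1* was likewise highest in the lowest papain bin, at 1095 CPM, and between 872 and 931 CPM in the others.

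**Figure D3:**
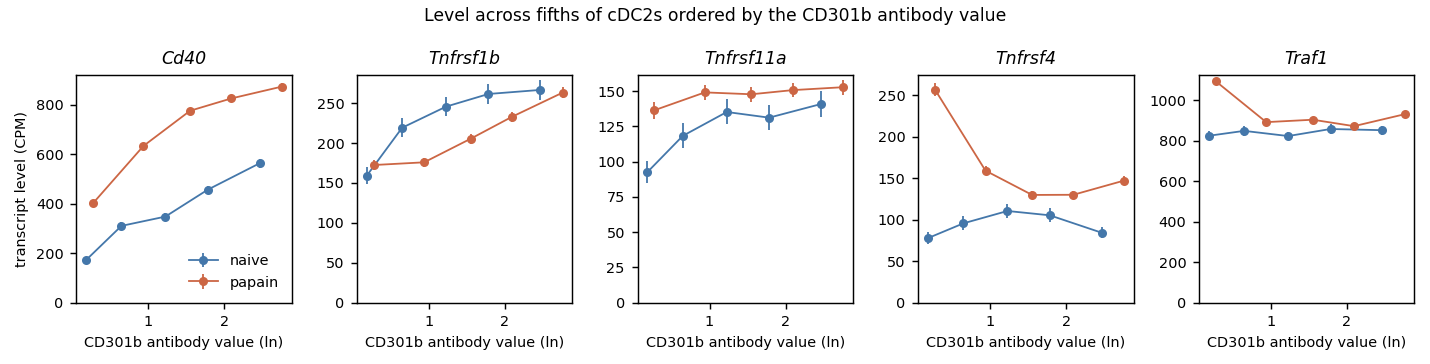
Level in CPM (linear axis from 0) of 4 receptors and *Traf1* in 5 equal bins of cDC2s, placed at the median CD301b antibody value of each bin (natural logarithm scale), with 95% counting intervals. *Cd40* climbs at each step in both libraries, and *Tnfrsf4* drops from 257 to 159 CPM after the lowest papain bin.

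The other 10 antibody values examined ordered *Cd40* less. From the lowest to the highest bin of CD172a the log2 difference of *Cd40* was 0.55 in naive and 0.63 in papain cDC2s, against 1.71 and 1.12 for CD301b. For CD11c it was -0.04 and 0.06, for MHCII 0.13 and -0.20, and for CD8a, the lowest, -0.46 and -0.57. Depth and total antibody counts moved with CD301b. The median was 12751 UMIs in naive CD301blo and 15167 in CD301bhi cDC2s, and 11351 and 16181 in the papain library. From the lowest to the highest bin of UMIs per cell the log2 difference of *Cd40* was 0.44 and 0.50. Inside each of the 5 bins of UMIs the CD301bhi class was still above the CD301blo class for *Cd40*, by 1.06 to 1.51 on the log2 scale in naive and by 0.86 to 1.15 in papain cells. For *Tnfrsf1b* the ratio inside the bins was 0.60 to 0.93 and 0.64 to 1.02. Inside 5 bins of total antibody counts the *Cd40* ratio was 0.95 to 1.56 in naive and 0.80 to 1.05 in papain cells, and that of *Tnfrsf1b* was 0.17 to 0.72 and 0.13 to 0.92. When the classes were standardised over the 5 bins of UMIs, 0 papain members met the falling rule. *Tnfrsf4* was nevertheless lower in CD301bhi cells in all 5 papain bins of UMIs (log2 ratios -0.70 to -0.37). In the bins of total antibody counts it was higher in CD301bhi cells in 1 of 5 papain bins (log2 ratios -0.95 to 0.46).

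*Cd40* differed between transcriptomic clusters of cDC2s more than between CD301b classes. Over the authors' mRNA clusters the level ran from 113 CPM in cluster 1.5 to 676 CPM in cluster 1.6 of the naive library and from 118 CPM in cluster 2.9 to 1042 CPM in cluster 2.8 of the papain library. These clusters were made from the transcripts themselves, so their levels are a description. The 3 naive clusters with the lowest *Cd40* (113 to 178 CPM) held 70.2% of CD301blo and 26.2% of CD301bhi cDC2s. The 3 papain clusters with the lowest *Cd40* (118 to 490 CPM) held 58.9% of CD301blo and 4.98% of CD301bhi cDC2s.

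Inside clusters the CD301b difference of *Cd40* was smaller but mostly kept its direction. Among clusters with at least 30 cells of both classes, CD301bhi exceeded CD301blo cells in 5 of 5 naive and 7 of 8 papain clusters, with median log2 ratios of 0.47 and 0.48. The counting interval lay above 0 in 4 naive and 6 papain clusters. The exception in direction was cluster 2.2, where the levels were 880 CPM in CD301bhi and 917 CPM in CD301blo cells (log2 ratio -0.06, 95% interval -0.16 to 0.04). This large cluster held 869 of the 2893 CD301bhi and 71 of the 1470 CD301blo cDC2s of the papain library. When the clusters were given the weight of their cells, the *Cd40* log2 ratio fell from 1.36 to 0.47 in naive and from 0.97 to 0.36 in papain cells.

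For *Tnfrsf1b* the CD301bhi cells were higher in 5 of 5 naive and 6 of 8 papain clusters, with medians of 0.37 and 0.41. Its counting interval lay above 0 in 3 naive and 6 papain clusters. *Tnfrsf11a* and *Traf6*, the other members that rose in naive mice, had naive medians of 0.00 and 0.08 inside clusters, and standardised over clusters they no longer counted as rising. *Tnfrsf4* was lower in CD301bhi cells in 5 of 5 naive and 8 of 8 papain clusters, although over all naive cells the interval of its ratio included 0 (-0.05 to 0.22). Inside clusters its counting interval lay below 0 in 4 of the 5 naive and 4 of the 8 papain clusters. Standardised over clusters the *Tnfrsf4* log2 ratio was -0.61 in naive and -0.26 in papain cells, and the papain classes no longer met the falling rule. The naive ratio of *Tnfrsf4* in cluster 1.5 rested on 1 UMI in CD301bhi cells. In the papain library cluster 2.4 had the highest *Tnfrsf4* (380 CPM) and the highest *Traf1* (1472 CPM), and 527 of its 671 cells were CD301blo. *Tnfrsf1a* was highest in naive cluster 1.5, at 78.2 CPM, where the other 6 naive clusters had 14.3 to 24.2 CPM.

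**Figure D4:**
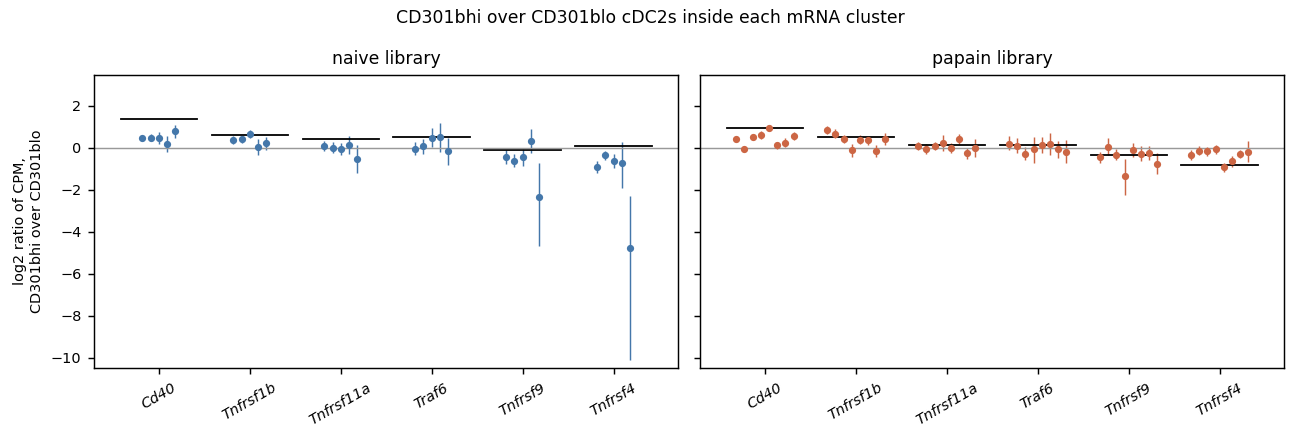
Log2 ratio of CPM in CD301bhi over CD301blo cDC2s inside each of the authors' mRNA clusters with at least 30 cells of both classes (points, 5 naive and 8 papain clusters, with 95% counting intervals). Black bars give the ratio over all cells of the library. The *Cd40* points lie above 0 in 12 of 13 clusters and below the black bar in all, and the *Tnfrsf4* points all lie below 0.

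The summed level of *Ccr7*, *Fscn1* and *Ccl22* was 5827 CPM in naive CD301blo and 8448 CPM in CD301bhi cDC2s, and 6837 and 8133 CPM in the papain library. Of these genes *Fscn1* increased at every class step in both libraries, whereas papain *Ccr7* was at 3276, 3096 and 3270 CPM from CD301blo to CD301bhi and papain *Ccl22* was highest in CD301bint cDC2s, at 2117 CPM. Naive cluster 1.5, which held 143 of the CD301blo cells, had the lowest sum of the naive clusters, at 2063 CPM. Without it the naive *Cd40* log2 ratio was 1.17, and *Tnfrsf11a* no longer counted as rising. Among the cDC2 classes, transcripts of B cells, which also express *Cd40*, were highest in the CD301blo class, where the sum of *Cd79a*, *Cd79b*, *Ms4a1* and *Ighm* was 62.5 CPM in naive and 28.7 CPM in papain cells, against 12.7 and 4.5 CPM in CD301bhi cells. The sum of 4 T cell genes was 9.5 to 43.7 CPM over the naive and 8.4 to 16.8 CPM over the papain cDC2 classes. That of 3 regulatory T cell genes was 2.5 to 8.5 CPM and 1.4 to 2.4 CPM, that of 3 NK cell genes was 3.8 to 18.3 CPM and 0.2 to 3.7 CPM, and that of 4 monocyte and macrophage genes 14.3 to 36.8 CPM and 11.2 to 21.3 CPM. The part of these cells in the member levels was not tested. Removing the cells in which *Cd3e* or *Trac* was detected left each member's gradient call as it was in both libraries.

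Papain cells were then compared with naive cells of the same class. *Cd40* was at least 1.5-fold higher in 4 of the 5 classes, and in CD301bhi cDC2s it fell just under that fold (log2 ratio 0.58) when ratios were divided by the median ratio of all genes. The log2 ratio was 1.06 in CD301blo (95% interval 0.99 to 1.13), 0.96 in CD301bint (95% interval 0.91 to 1.01) and 0.67 in CD301bhi cDC2s (95% interval 0.63 to 0.71). LCs had the highest ratio, 1.21 (95% interval 1.14 to 1.29), and cDC1s the lowest, 0.47 (95% interval 0.37 to 0.56). Within the cDC2s the class with the lowest naive *Cd40* thus had the largest ratio, and the gap between CD301bhi and CD301blo cDC2s was narrower on the log2 scale in papain cells.

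Few other members passed this fold together with the minimum level of 10 CPM. In CD301blo cDC2s 2 members were higher (*Cd40* and *Tnfrsf4*), where 11% of all genes were, and in CD301bint and CD301bhi cDC2s only *Cd40* was, where 10.7% and 10.2% of all genes were. *Tnfrsf1a* was the 1 lower member in each cDC2 class, where 14.2%, 10.5% and 8.39% of all genes were lower. Its log2 ratio was -1.003, -1.07 and -0.73 from CD301blo to CD301bhi, at levels of 12.7 to 31.6 CPM. In cDC1s *Tnfrsf9* and *Traf1* were higher (log2 ratios 0.69 and 0.73), where 10.3% of genes were, and in LCs *Cd40* and *Tnfrsf9* (log2 ratios 1.21 and 1.13), where 14.4% were. *Ltbr* in cDC1s had a larger ratio (log2 ratio 0.87, 95% interval 0.11 to 1.60) but stayed below the minimum level, at 4.6 CPM in naive and 8.5 CPM in papain cells. No member was lower past the fold in cDC1s or LCs, where 12.6% and 9.21% of all genes were. *Tnfrsf4* in CD301blo cDC2s had the largest ratio of any member and class, from 88.5 to 243 CPM (log2 ratio 1.46, 95% interval 1.35 to 1.57). *Tnfrsf1b*, which rose with CD301b like *Cd40*, was not higher in papain cells of any class, with log2 ratios from -0.37 to -0.05.

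**Figure D5:**
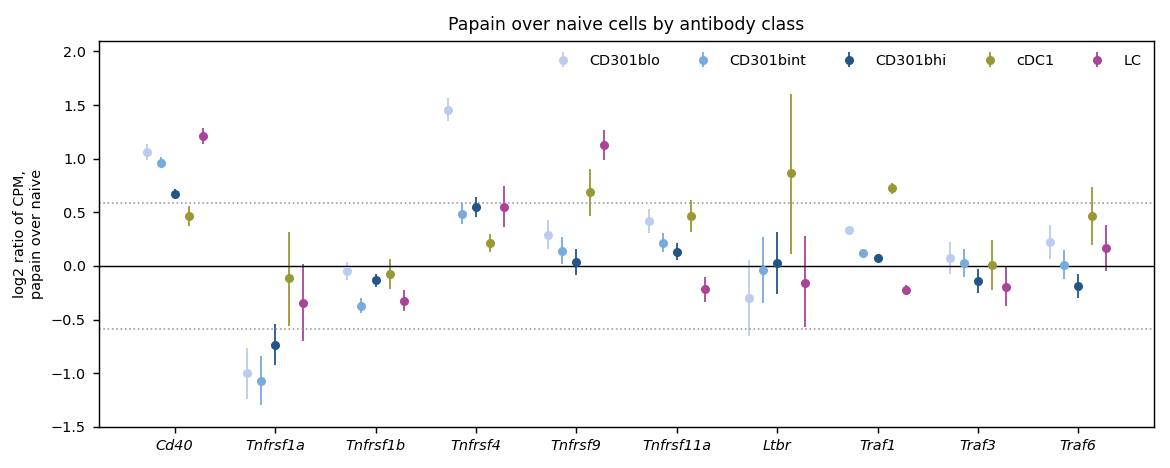
Log2 ratio of CPM in papain over naive cells for each member in the 5 antibody classes, with exact 95% counting intervals from 1 library per condition. Dotted lines mark the 1.5-fold threshold. *Cd40* lies between 0.47 and 1.21 in all classes, and *Tnfrsf1a* between -1.07 and -0.73 in the 3 cDC2 classes.

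The rest of the pathway was read from 3 lists. Of 19 other TNF receptors in the data, 4 reached 10 CPM in cDC2s. The 2 of these that fell with CD301b in both libraries were *Tnfrsf18*, the gene of the costimulatory receptor GITR, and *Tnfrsf12a*, the gene of the TWEAK receptor. *Tnfrsf18* had log2 ratios of -0.42 in naive and -0.91 in papain cells, and *Tnfrsf12a* of -0.73 and -1.58, and 5.27% of all genes fell in both libraries. No other receptor of this list rose in both.

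Of 22 other adaptors and signalling proteins, 18 were measured in both libraries, and 3 of these rose in both and 0 fell. They were *Tnfaip3*, which encodes the NF-κB inhibitor A20, *Birc3*, which encodes the ubiquitin ligase cIAP2, and *Tbk1*, a kinase downstream of TRAF proteins. *Tnfaip3* went from 553 over 763 to 990 CPM in naive and from 371 over 580 to 719 CPM in papain cDC2s (log2 ratios 0.84 and 0.96). *Birc3* had log2 ratios of 0.59 and 0.45, and *Tbk1* of 0.57 and 0.49. These shares, 3 of 18 against 6.42% of all genes, are counts without a test. The median log2 ratio of the list was 0.20 in naive and 0.04 in papain cells.

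Of 8 ligands, 3 were measured in both libraries. *Tnf* itself rose with CD301b, from 40.3 over 64.7 to 87.6 CPM in naive and from 19.7 over 30.4 to 39.3 CPM in papain cDC2s (log2 ratios 1.12 and 0.99). *Tnfsf9*, the gene of the CD137 ligand, rose too (log2 ratios 0.81 and 0.95), in the opposite direction to its receptor gene *Tnfrsf9* in papain cells. *Ltb*, the gene of lymphotoxin β, fell from 62.4 over 9.1 to 6.5 CPM in naive and from 13.4 over 4.1 to 2.6 CPM in papain cDC2s. *Ltb* is also a gene of T and B cells, whose summed marker levels are given above, and their part in this difference was not tested.

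Across the 10 groups of class and library, with each library centred, the genes whose log2 level followed that of *Cd40* most closely were *Gm45797* (Pearson r 0.969), *Slc5a6* (0.966), *Serpinb9* (0.957), *Mpp5* (0.952) and *Arf3* (0.949), of 8443 genes. The first 2 of these were low, at 6.8 to 12.4 CPM (*Gm45797*) and 2.9 to 10.5 CPM (*Slc5a6*) over the 10 groups, near the minimum of 10 CPM. The groups of a library share its cells' handling and differ in depth, so r is given as a description. Their median UMIs per cell ran from 10767.5 to 15806.5 in naive and from 11351 to 18290 in papain classes. *Serpinb9*, which encodes a granzyme B inhibitor, went from 363 CPM in naive CD301blo to 647 CPM in CD301bhi cDC2s and from 566 to 981 CPM in the papain library. *Tnfrsf1b* had the highest r of the other members, 0.84 (rank 69), followed by *Traf6* at 0.53 (rank 1058), and *Traf1* had the lowest, -0.55. This order changed with the measure. Without centring *Traf6* had the highest r of the other members (0.54), *Tnfrsf1b* was at 0.26 and *Tnfrsf1a* was lowest, at -0.68. Over mRNA clusters of cDC2s *Tnfrsf1b* was highest again, at 0.74, and *Tnfrsf1a* lowest, at -0.12. Without centring 1 of the 5 genes stayed among the first 5, and over mRNA clusters of cDC2s in place of classes 0 did.

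The share of cells with a *Cd40* UMI followed the level. It was 62.6% of CD301blo (exact Clopper-Pearson 95% interval 58.8 to 66.3) and 87.6% of CD301bhi cDC2s (84.9 to 89.9) in naive mice, and 82.6% (80.6 to 84.5) and 96.7% (96.0 to 97.3) in papain-immunized mice. After each cell was thinned to 8392 UMIs, leaving out shallower cells (87 CD301blo and 55 CD301bhi cells in the naive library, 264 and 137 in the papain library), the shares were 53.6% and 80.5% in naive and 78.4% and 93.2% in papain cells. As a background, 18.1% of the 237 naive and 13.7% of the 241 papain cells without antibody data that carried a *Cd3e* or *Trac* UMI had a *Cd40* UMI, at median depths of 7626 and 6980 UMIs. *Traf1* was detected in 96.5% to 100% of the cells of every class, so that its share could show no gradient.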

How the data were processed

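Live MHCIIhi CD11c+ B220- cells of 1 naive and 1 papain library were profiled with the Chromium Single Cell 3′ v3 kit and DNA-barcoded antibodies. The authors used Cell Ranger 3.0.1, mm10 and, per the labels, Partek. Expression was deposited per cell as log2 of CPM with 1 added. Each value was turned back into UMIs with the CPM that a single UMI was worth in its cell, which gave whole numbers (tolerance 0.02) for 100% of the values that came to 50 UMIs or fewer. The antibody values the authors deposited are natural log (ln) values, the ratio of each antibody to the geometric mean of its cell plus 1, and the deposited antibody totals are counts.

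UMIs of each authors' class were summed in Python 3.11.15 (NumPy 2.4.6, SciPy 1.17.1, pandas 2.3.3) and scaled to CPM with exact Poisson intervals. Ratios have exact conditional binomial intervals and shares exact Clopper-Pearson intervals, all at 95% and for counting error only. Total depth was 53095046 naive and 122133401 papain UMIs. With 1 library per condition no test was made. The ratio and interval code was tested on simulated counts. No doublet caller was run, and cells with T cell transcripts were left out as an alternative. Named genes were the 10 members, the 5 genes most like *Cd40* and the genes of the pathway lists past a 25% difference in both libraries in 1 direction. Members and lists were chosen with earlier results of these data known. Of the listed genes, 2 were not among those in the files.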

Additional observations from a re-analysis of the deposited data

Results flagged for a closer look

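The ratio of papain to naive cells had opposite signs in different DC classes for 3 members, each with counting intervals that left out 0. The share of all genes with such opposite signs was not counted, so this count says nothing particular about the members. The difference between classes was not tested, since each class has 1 library per condition, and the classes of a library are not independent of each other. All of these ratios are under the 1.5-fold threshold apart from *Traf1* in cDC1s.

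*Tnfrsf11a* was lower in papain than in naive LCs (log2 ratio -0.22) and higher in CD301blo, CD301bint and CD301bhi cDC2s (0.42, 0.21 and 0.13) and in cDC1s (0.47). *Traf1* was likewise lower in LCs (log2 ratio -0.22) and higher in CD301blo, CD301bint and CD301bhi cDC2s (0.33, 0.12 and 0.076) and in cDC1s (0.73). *Traf6* was lower in papain CD301bhi cDC2s (log2 ratio -0.19) and higher in CD301blo cDC2s (0.22) and cDC1s (0.47). Over all genes the median log2 ratio was 0.095 in CD301bhi cDC2s and 0.008 to 0.063 in the other classes. The *Traf1* ratio in CD301bhi cDC2s was thus below that of the median gene, and that of *Tnfrsf11a* was close to it.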

How the results depend on the processing

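No paired analysis was possible because each condition has 1 library without a replicate number. The *Cd40* log2 ratio of CD301bhi over CD301blo cDC2s stayed positive under every alternative run in both libraries. It was 0.47 (naive) and 0.36 (papain) when standardised over mRNA clusters, 0.77 (papain) with 3 classes of equal size by the CD301b value and 0.93 (papain) without the deepest and shallowest 10% of cells. With 2 alternatives chosen after seeing the data it was 1.17 (naive) without the cluster lowest in migratory DC transcripts and 0.93 (papain) standardised over 5 bins of depth.

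Of the naive members, 2 rose with CD301b and 2 fell when standardised over clusters, and 2 rose at a fold of 1.5. In the naive library 1 fell when standardised over depth (*Tnfrsf1a*) and 1 without the cluster lowest in migratory DC transcripts (*Tnfrsf9*). Naive *Tnfrsf11a* no longer counted as rising when standardised over depth. It was nevertheless higher in CD301bhi than in CD301blo cells in all 5 naive bins of UMIs (log2 ratios 0.14 to 0.82). Standardised over clusters, 3 papain members rose (*Cd40*, *Tnfrsf1b* and *Tnfrsf1a*) and 2 fell (*Tnfrsf9* and *Ltbr*), and *Tnfrsf4* no longer met the stepwise rule. Of the papain members, 1 rose and 1 fell at a fold of 1.5, and 1 fell with classes of equal size, without the deepest and shallowest cells or with 10 CPM added, and 0 when standardised over depth. *Cd40* and *Tnfrsf1b* rose under each of the 10 alternatives that kept the fold and the class rule, in both libraries. The share of all genes that rose or fell was not counted under these alternatives.

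For papain against naive cells, a threshold of 25% gave 5 members past it in CD301blo cDC2s, 4 in CD301bint cDC2s, 5 in cDC1s and 5 in LCs. The share of all genes past this lower threshold was not counted, so these counts say nothing particular about the members. In CD301bhi cDC2s 1 member passed with the mean over cells, with 10 CPM added or with ratios divided by the median ratio, as did 1 in cDC1s with the mean over cells. The *Cd40* log2 ratio of CD301bhi cDC2s was 0.58 with ratios divided by the median ratio, just under the 1.5-fold threshold, and 0.85 with the 3 cDC2 classes pooled at equal weight. Of the 5 genes most like *Cd40*, 1 stayed without centring and 0 over mRNA clusters.

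Thinned to 8392 UMIs, the share of cells with a *Cd40* UMI was 53.6%, 68.5%, 80.5% and 68.0% in naive CD301blo, CD301bint, CD301bhi cDC2s and cDC1s, and 78.4%, 89.4%, 93.2% and 83.2% in papain ones. In all, 94 of 131 alternative values of these comparisons stayed within the counting interval or within 1.5 times the count, and no *Cd40* ratio changed sign. The causes of these shifts were not tested. Depth limits *Ltbr* and *Tnfrsf1a* most, with 26 to 804 UMIs per class.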

Other observations

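The cells without antibody data entered no comparison. *Cd40* was at 355 CPM in the 429 naive and 257 CPM in the 290 papain cells of this kind, *Tnfrsf1b* at 202 and 117 CPM, *Tnfrsf11a* at 99.0 and 47.2 CPM and *Traf1* at 635 and 326 CPM. T cell transcripts (*Cd3e* or *Trac*) were detected in 237 of these naive cells and in 241 of these papain cells, which carried 21.7% and 68.7% of the *Tnfrsf4* UMIs of these cells.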
